A study of Mus musculus with 9 samples.

Results

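The subcortical maternal complex is described here through the transcripts of 7 genes, Nlrp5, Ooep, Tle6, Khdc3, Nlrp2, Padi6 and Zbed3, taken by gene symbol from 30153 genes counted in mouse eggs. All 7 were found, each as a single row, and all 7 passed the filter on low counts in every comparison. The rule names them by symbol and sets no threshold on a measured value. The eggs were metaphase II (MII) oocytes of 4-week-old females with the genotype Sycp3CreERT2/+; Rosa26nT-nG/+ on a mixed genetic background. All groups therefore shared both alleles, an inducible Cre recombinase at the meiotic gene Sycp3 and a reporter that makes nuclear tdTomato before recombination and nuclear GFP after it. Females had received 5 IU of PMSG and, 48 h later, 5 IU of hCG, and eggs were recovered 13 h after hCG, stripped of cumulus with hyaluronidase and then hand-sorted by their fluorescence. The 3 groups, GFP High, GFP Low and RFP, had 3 libraries each, made from pools of 15, 15 and 16 eggs for GFP High, 49, 52 and 57 for GFP Low, and 88, 87 and 100 for RFP. The groups thus differ in the reporter and, at the same time, in the number of eggs pooled, and the effects of these cannot be told apart. The labels do not say which animals gave which pool, so the p-values below measure the spread between these pools, part of which may be technical.

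The complex lies beneath the egg's plasma membrane and is inherited by the embryo. Its core is built by NLRP5 (MATER), OOEP (FLOPED) and TLE6, to which KHDC3 (FILIA) and other proteins bind, and it is tied to the fibrous cytoplasmic lattices of the egg, which need PADI6. Its genes are maternal effect genes: mothers that lack the core proteins make eggs whose embryos stop in early cleavage, while their ovaries and ovulation are largely spared. The growing oocyte stores these transcripts before transcription ceases. Capture with poly-dT beads reads only the part of that store that carries a poly-A tail in the ovulated egg. Tail length was not measured, so a level here need not equal the whole store.

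Libraries held 19381677 to 27746256 counts. The groups were checked by their reporters. The counts of eGFP were 986, 1081 and 869 for GFP High 1, 2 and 3, 282, 440 and 662 for GFP Low and 0, 8 and 16 for RFP. tdTomato had 2, 0 and 2, then 16, 20 and 35, then 94, 57 and 46 counts in the same order. The order of the 3 groups was that of their labels for both reporters, without overlap. As a check of the cell type, all 9 listed oocyte genes (Zp1, Zp2, Zp3, Gdf9, Bmp15, Mos, Oosp1, Dazl and Ddx4) were detected, with summed levels of 4964 to 5529 CPM (read counts scaled to library size) for GFP High, 4483 to 4774 for GFP Low and 4578 to 4880 for RFP. Their sum was thus higher in GFP High than in both other groups without overlap, and 0 of 9 passed the adjusted threshold in edgeR in any comparison, with 2, 0 and 3 at an unadjusted p below 0.05 (3, 0 and 3 in DESeq2 and 2, 0 and 3 in limma-voom, with 0 past the threshold) for GFP High against RFP, GFP Low against RFP and GFP High against GFP Low. Over all genes tested, the share at that unadjusted p was 4.09%, 2.62% and 3.77% in edgeR, 4.92%, 2.02% and 4.71% in DESeq2, and 5.23%, 3.11% and 4.94% in limma-voom. The 20 listed cumulus and granulosa genes summed to 114 to 217, 144 to 162 and 135 to 210 CPM, in the same order. Nr5a2, which codes for a nuclear receptor, supplied 126 ± 29.2, 119 ± 13.2 and 118 ± 11.3 CPM of that (SD, n = 3). Foxl2, Amhr2, Areg and Ereg were at 0 counts in all GFP High libraries, Amhr2 and Ereg in all GFP Low libraries, and Lhcgr in all RFP libraries. Others were detected, such as Cyp19a1, with 165 to 499 counts per library. Vcan, Tnfaip6, Ptx3, Ptgs2 and Inha ranged from 0 counts to 341, 249, 221, 168 and 144, so some libraries held such transcripts. In pools such as these, fewer cells of a type and less RNA per cell cannot be told apart.

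The members' transcripts differed widely in level. Zbed3 was the highest of all protein-coding genes in every library, and Khdc3, as counted, was near the level of a typical expressed gene. Levels between genes are compared as FPKM, the authors' read counts scaled for gene length and library size, given as the mean ± SD of 9 libraries. Mean FPKM was 3977 ± 303 for Zbed3, 787 ± 71.3 for Padi6, 313 ± 26.7 for Ooep, 292 ± 27.6 for Tle6, 213 ± 12.1 for Nlrp5, 48.9 ± 2.09 for Nlrp2 and 4.07 ± 0.943 for Khdc3. Ranked by that mean among 18483 protein-coding genes, they stood at 1, 23, 85, 96, 157, 1026 and 6004. The highest member lay 977-fold above the lowest, or 601-fold if Khdc3 is scaled by the exonic bases it shares with no other gene, and the median of the 12919 protein-coding genes that passed the filter was 3.36 FPKM. The order Zbed3, Padi6, Ooep or Tle6, Nlrp5, Nlrp2, Khdc3 was the same in 9 of 9 libraries. Ooep and Tle6 were the only neighbours in it whose ranges overlapped: Ooep was above Tle6 in 5 of 9 libraries, with a ratio of 1.08 ± 0.114. The ratio of neighbours was 5.09 ± 0.590 for Zbed3 to Padi6, 2.54 ± 0.338 for Padi6 to Ooep, 1.38 ± 0.184 for Tle6 to Nlrp5, 4.37 ± 0.344 for Nlrp5 to Nlrp2, and 12.8 ± 3.81 for Nlrp2 to Khdc3 (7.84 ± 2.34 by the unshared bases of Khdc3).

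**Figure D1:**
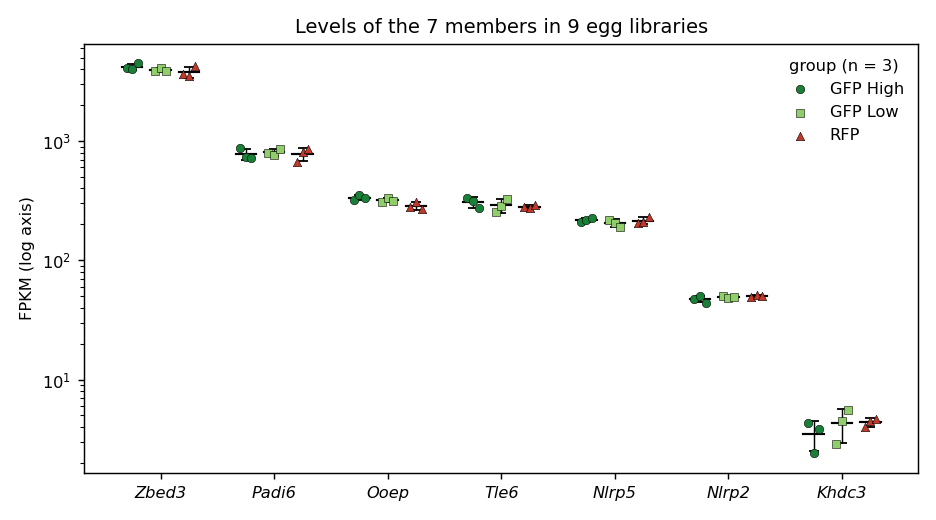
FPKM (log axis) of the 7 members in the 9 libraries; points are libraries coloured by group, black lines and bars are the mean and SD of 3 libraries. The members keep their order in all groups, Ooep and Tle6 lie level with each other, and the spread is widest for Khdc3, from 2.40 to 5.52 FPKM.

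Promoters were read as the 250 bases before the RefSeq start of transcription, for members with several the start nearest to that deposited, in the RefSeq table of the build GRCm38.p6, which held all 7 members. FIGLA, an oocyte transcription factor that switches on the zona pellucida genes, binds E-boxes, CANNTG, and NOBOX, an oocyte homeobox factor, binds TAATTG. Searched on both strands, CANNTG was found in 6 of 7 members' windows, all but that of Nlrp2, beside 66.2% of all 32807 promoters in the table. At least 2 were found in 5 members (31.8% of all promoters) and at least 3 in 2 members (12.2% of all), Zbed3 with 3 and Khdc3 with 5, where neighbouring matches may overlap. TAATTG was found in 1 member, Ooep (7.18% of all), and TATAAA in 0 of 7 (12.4% of all). Only these exact letters were searched, and the window of Zbed3 below holds tatataag, which was not counted. The windows of the most abundant members, Zbed3 on the plus strand at chr13:95323355-95323604 and Padi6 on the minus strand at chr4:140742644-140742893, both upstream of the deposited gene, are shown with CANNTG in capitals, read 5′ to 3′ along the gene's strand.
Zbed3: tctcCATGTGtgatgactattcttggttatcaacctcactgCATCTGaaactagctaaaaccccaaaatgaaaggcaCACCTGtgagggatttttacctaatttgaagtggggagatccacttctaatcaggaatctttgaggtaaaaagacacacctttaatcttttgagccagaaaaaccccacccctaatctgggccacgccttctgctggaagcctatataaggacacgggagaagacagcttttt
Padi6: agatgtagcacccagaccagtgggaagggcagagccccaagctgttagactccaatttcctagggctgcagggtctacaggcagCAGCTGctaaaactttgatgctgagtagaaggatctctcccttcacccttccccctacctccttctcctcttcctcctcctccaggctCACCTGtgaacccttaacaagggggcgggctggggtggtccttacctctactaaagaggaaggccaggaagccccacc

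In 3 of 7 members, Ooep, Khdc3 and Padi6, a CANNTG started exactly 78 bases before the RefSeq start. This holds for 159 of the 32807 promoters, 0.485%, and the position was picked out after the matches were seen, so it is a description and no more. The 30 bases around each are given for comparison, with the CANNTG in capitals: Ooep from the minus strand at chr9:78378649-78378678, Khdc3 from the plus strand at chr9:73102308-73102337 and Padi6 from the minus strand at chr4:140742704-140742733 (GRCm38.p6, RefSeq).
Ooep: acccagcctaccCACTTGcgcggtgcgcgc
Khdc3: tctcccccacccCAGGTGcagccagtgagg
Padi6: ctcctccaggctCACCTGtgaacccttaac
The match of Khdc3, CAGGTG, is that of Padi6, CACCTG, read on the other strand, and that of Ooep is CACTTG. The deposited gene of Ooep starts 137 bases before the RefSeq start and that of Khdc3 562 bases before it, so the 30 bases shown for both lie inside the deposited genes, whereas those of Padi6 lie upstream. A match in such a window is a sequence feature, not a site of binding.

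No member passed the test between reporter groups. In GFP High against RFP, GFP Low against RFP and GFP High against GFP Low, 0 of 7 members passed an adjusted p of 0.05 in edgeR's quasi-likelihood test, beside 0.0135%, 0.0197% and 0.0% of all genes tested (2 of 14829, 3 of 15199 and 0 of 14785). DESeq2 and limma-voom also called 0 of 7 in each. The edgeR threshold was also missed by reporters. There, eGFP passed against RFP in both GFP groups (adjusted p 0.00727 and 0.000716). It did not in GFP High against GFP Low (log2 fold change 1.11, adjusted p 0.998). tdTomato, with at most 94 counts in a library, passed in none of the 3, with log2 fold changes of -5.45, -1.43 and -4.01 (adjusted p 0.997, 0.9999 and 0.998). In the authors' deposited DESeq2 values, eGFP did pass in GFP High against GFP Low (adjusted p 0.00918), and tdTomato in GFP High against RFP (0.00124). There, tdTomato still missed the threshold in GFP Low against RFP (0.99997) and GFP High against GFP Low (0.518). Not passing is therefore no evidence of equal levels. At an unadjusted p below 0.05, edgeR had 1, 0 and 0 members, beside 4.09%, 2.62% and 3.77% of all genes, DESeq2 had 1, 0 and 0, beside 4.92%, 2.02% and 4.71%, and limma-voom 1, 1 and 0, beside 5.23%, 3.11% and 4.94%. A single test of any difference among the 3 groups over 9 libraries called 0 of 7, beside 0.0126% of 15857 genes, and had 1 member at an unadjusted p below 0.05, beside 4.65%. The comparisons share libraries pairwise, so their values for a member are not independent. In each, 4 of 7 members had a fitted log2 fold change above 0, beside 49.3%, 48.9% and 49.4% of all genes. A fitted fold of 2 or more in either direction was found for 0 of 7 members, beside 10.1%, 3.9% and 10.4% of all genes. All genes had wider intervals than the members, as given below. The share among genes as abundant as most members was not computed, so this contrast is no measure of stability. The members' median log2 fold changes were 0.01, 0.04 and 0.06, and those of all genes were -0.01, -0.00 and -0.00. The median half-width of the 95% interval of a member's log2 fold change was 0.20, 0.17 and 0.18, against 0.34, 0.25 and 0.33 for genes with a mean of at least 20 CPM and 0.72, 0.47 and 0.73 for all genes tested.

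**Figure D2:**
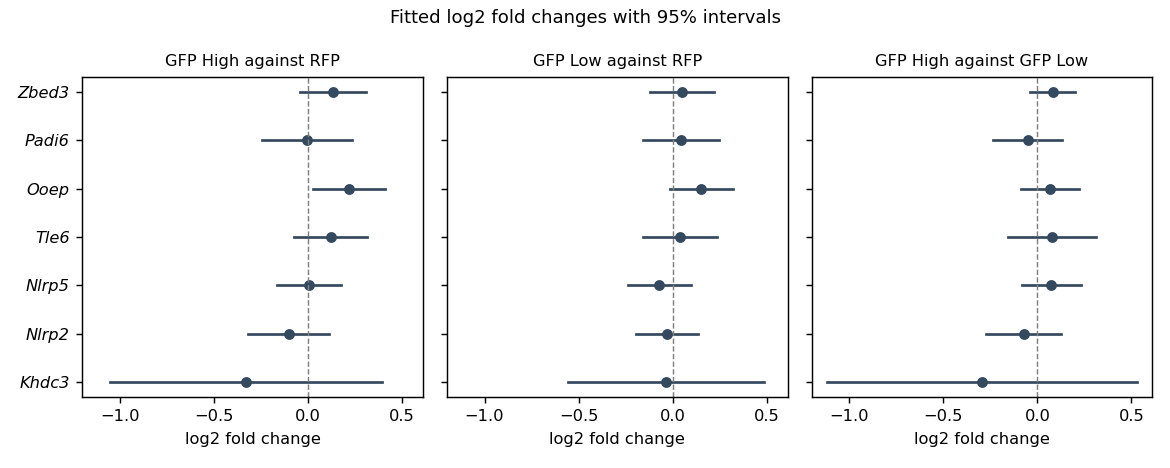
Fitted log2 fold change (first group over second) of each member with its 95% interval, in 3 panels for the 3 comparisons. All intervals but that of Ooep in GFP High against RFP (0.03 to 0.41) include 0, and those of Khdc3 are the widest.

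The core proteins come first. Nlrp5 (ENSMUSG00000015721, chr7:23385889-23441922, plus strand) codes for the NACHT and leucine-rich repeat protein that anchors the complex. Its FPKM was 209, 219 and 226 for GFP High 1, 2 and 3, 220, 206 and 191 for GFP Low 1, 2 and 3, and 207, 209 and 231 for RFP 1, 2 and 3. The groups overlapped, with the lowest value in GFP Low 3 and the highest in RFP 3. Its log2 fold change was 0.01 in GFP High against RFP (95% interval -0.17 to 0.18), -0.07 in GFP Low against RFP (-0.24 to 0.10) and 0.07 in GFP High against GFP Low (-0.08 to 0.23). The upper bounds correspond to a fold of at most 1.17, in GFP High against GFP Low, and the lower bounds to at least 0.847, in GFP Low against RFP. Its level also varied little within a group, with coefficients of variation of 4.10%, 6.81% and 6.76% for GFP High, GFP Low and RFP, where counting error alone gives about 0.618%, 0.639% and 0.608%. A pseudogene, Nlrp5-ps, is 97.1% identical to it over 1025 bases and reached at most 77 counts, against at least 20863 for Nlrp5.

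Ooep (ENSMUSG00000032346, chr9:78376109-78378725, minus strand) codes for a small oocyte protein with a KH-like domain, the fold of many RNA-binding proteins. Its FPKM was 321, 354 and 330 for GFP High 1, 2 and 3, 307, 331 and 317 for GFP Low 1, 2 and 3, and 277, 311 and 268 for RFP 1, 2 and 3. All GFP High libraries lay above all RFP libraries, and GFP Low overlapped both, since GFP Low 1 lay below RFP 2 and GFP Low 2 above GFP High 1. Its 1.16-fold higher level in GFP High than in RFP (log2 fold change 0.22, SE 0.09, 95% interval 0.03 to 0.41) had an unadjusted p of 0.0296 and an adjusted p of 0.997 in edgeR, so it did not pass the threshold. The authors' deposited table gives it an unadjusted p of 0.0177 and an adjusted p of 0.531. The difference was 0.15 (-0.01 to 0.32) for GFP Low against RFP and 0.06 (-0.09 to 0.22) for GFP High against GFP Low. In the test of any difference among the 3 groups, Ooep had an unadjusted p of 0.0424 (edgeR; adjusted p 1.00). Of all genes tested, 4.88% were higher in GFP High than in RFP without overlap. The summed oocyte genes were higher in GFP High than in RFP in the same libraries, with 6 of the 9 genes fitted higher. Their part in the difference was not tested. A stretch of 121 bases is 95.04% identical to the transcript of Ube2e1, which reached at most 1085 counts.

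Tle6 (ENSMUSG00000034758, chr10:81590904-81601073, minus strand) codes for an oocyte member of the Groucho family, whose other members are transcriptional corepressors. Its FPKM was 333, 315 and 273 for GFP High 1, 2 and 3, 252, 287 and 328 for GFP Low 1, 2 and 3, and 279, 273 and 289 for RFP 1, 2 and 3. The 3 RFP libraries lay close together, inside the range of GFP Low and partly inside that of GFP High. Its log2 fold change was 0.12 (-0.08 to 0.32) in GFP High against RFP, 0.04 (-0.16 to 0.24) for GFP Low against RFP and 0.08 (-0.16 to 0.31) for GFP High against GFP Low. The direction of the last 2 depended on single libraries, being -0.06 in GFP Low against RFP without GFP Low 3 and -0.02 in GFP High against GFP Low without GFP Low 1.

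Khdc3 (ENSMUSG00000092622, chr9:73101836-73104438, plus strand) codes for a KH-domain protein that binds the core and acts in genome stability of the early embryo. It was the lowest and the most variable member. Its counts were 243, 121 and 177 for GFP High 1, 2 and 3, 116, 242 and 318 for GFP Low and 220, 212 and 266 for RFP. These gave 4.31, 2.40 and 3.86 FPKM for GFP High, 2.89, 4.45 and 5.52 for GFP Low and 4.00, 4.49 and 4.71 for RFP. GFP High 2 and GFP Low 1 lay below all others, GFP Low 3 above, and all groups overlapped. Coefficients of variation of 28.5%, 31.0% and 8.65% in GFP High, GFP Low and RFP compare with 7.45%, 6.66% and 6.56% from counting error alone. Its log2 fold change was -0.33 in GFP High against RFP, with an interval of -1.05 to 0.39, or a fold of 0.795 (0.482 to 1.31). The others were -0.04 (-0.56 to 0.49) for GFP Low against RFP and -0.29 (-1.12 to 0.53) for GFP High against GFP Low. Any change within these intervals remains compatible with the data at this spread. Single libraries moved these values: that of GFP High against RFP was -0.12 without GFP High 2 and -0.51 without GFP High 1. In GFP High against GFP Low it was -0.08 without GFP Low 3, -0.09 without GFP High 2, -0.47 without GFP High 1 and -0.51 without GFP Low 1. In GFP Low against RFP it was 0.18 without GFP Low 1, 0.02 without RFP 3 and -0.26 without GFP Low 3.

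The count of Khdc3 rests on an annotation in which another gene shares its exons. Gm20509, at chr9:73102470-73117920 on the same strand, covers 790 of the 2050 exonic bases of Khdc3 (38.5%), in pieces of 206, 180, 77 and 327 bases. Of 18471 protein-coding genes with an annotation, 470 (2.54%) share as large a part of their exons with another gene on the same strand. Gm20509 itself was given 0 counts in 5 of the 9 libraries and 4, 11, 4 and 1 in GFP Low 2, RFP 1, RFP 2 and RFP 3. How reads in shared bases were counted is not given in the sources used here. If all the counted reads came from the 1260 unshared bases, the level of Khdc3 per kilobase would be 6.62 ± 1.53 FPKM. The lowest library of Nlrp2, at 44.3 FPKM as deposited, would then lie 4.93-fold above the highest of Khdc3. The RefSeq start of Khdc3 lies 562 bases inside the deposited gene, so some of the unshared bases may lie before it. Over fewer transcribed bases the level would be higher, so 6.62 FPKM is not an upper bound. The part of the shared exons in the low value was not tested.

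Nlrp2 (ENSMUSG00000035177, chr7:5298547-5351035, minus strand) codes for another NLRP protein of the egg, found with the complex. Its FPKM was 47.4, 49.8 and 44.3 for GFP High 1, 2 and 3, 50.6, 48.0 and 49.1 for GFP Low 1, 2 and 3, and 49.3, 51.1 and 50.2 for RFP 1, 2 and 3. The CPM of every GFP High library lay below that of every RFP library, with 167, 175 and 156 against 175, 181 and 180, although GFP High 2 and RFP 1 differed by less than 1 CPM. On the FPKM scale GFP High 2 was above RFP 1. Nlrp2 had the smallest spread of the members over the 9 libraries (SD of log2 CPM 0.07), with coefficients of variation of 5.54%, 2.54% and 1.81% in GFP High, GFP Low and RFP. The log2 fold change of -0.10 in GFP High against RFP had an interval of -0.32 to 0.11 and did not pass the threshold (unadjusted p 0.311 in edgeR), with -0.03 (-0.20 to 0.13) for GFP Low against RFP and -0.07 (-0.27 to 0.13) for GFP High against GFP Low. Of all genes tested, 6.98% were lower in GFP High than in RFP without overlap, and 11.9% were apart in either direction, beside 2 of 7 members, Ooep and Nlrp2. For GFP Low against RFP, 0 of 7 members were apart, beside 7.68% of all genes (3.59% higher and 4.09% lower). For GFP High against GFP Low the number was also 0 of 7, beside 11.5% (4.71% higher and 6.84% lower). Gm18757, a pseudogene on the opposite strand, shares 105 exonic bases with Nlrp2 and had 42 to 141 counts, against at least 3477 for Nlrp2. Gm5065, a protein-coding gene on the opposite strand at chr7:5350537-5360682, overlaps the start of Nlrp2 without a shared exonic base and had 945 to 1355 counts.

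Padi6 (ENSMUSG00000040935, chr4:140727355-140742643, minus strand) codes for the egg's member of the peptidylarginine deiminases, enzymes that turn arginine into citrulline, and is needed for the cytoplasmic lattices. Its FPKM was 878, 742 and 724 for GFP High 1, 2 and 3, 794, 757 and 860 for GFP Low 1, 2 and 3, and 666, 808 and 859 for RFP 1, 2 and 3. The groups overlapped throughout, with the highest value in GFP High 1 and the lowest in RFP 1. Its log2 fold change was -0.01 (-0.25 to 0.23) in GFP High against RFP, 0.04 (-0.16 to 0.25) for GFP Low against RFP and -0.05 (-0.23 to 0.13) for GFP High against GFP Low.

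Zbed3 (ENSMUSG00000041995, chr13:95323612-95337841, plus strand) codes for a BED-type zinc finger protein that binds Axin of the Wnt pathway and, in the egg, belongs to the complex. Its FPKM was 4088, 4027 and 4471 for GFP High 1, 2 and 3, 3833, 4135 and 3852 for GFP Low 1, 2 and 3, and 3636, 3503 and 4246 for RFP 1, 2 and 3. RFP 1 and RFP 2 were the lowest libraries and RFP 3 lay among the highest, so the groups overlapped. It ranked first per length in all 9 libraries and 3 or 4 by raw count, and took 0.795% to 1.00% of all counts in a library. Its log2 fold change was 0.13 (-0.04 to 0.31) in GFP High against RFP, 0.05 (-0.12 to 0.22) for GFP Low against RFP and 0.08 (-0.04 to 0.20) for GFP High against GFP Low. Snora47, a small nucleolar RNA gene in an intron, had 96 to 233 counts and shares no exonic base with it, nor does Gm22661, with 0 to 24 counts.

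Together the 7 members took 14280 ± 444 CPM for GFP High, 13735 ± 351 for GFP Low and 13350 ± 1212 for RFP (SD, n = 3), and RFP 3, at 14747, was the highest of all libraries. Zbed3 made up 67.9% to 73.6% of the members' summed FPKM. Without it, the sums were 4889 ± 241, 4841 ± 173 and 4748 ± 344 CPM. The members' median coefficients of variation within groups were 6.04%, 6.55% and 7.50% in GFP High, GFP Low and RFP. For the 6062 genes with at least 20 CPM these medians were 13.3%, 7.40% and 8.72%, and for all 15857 genes tested 31.8%, 16.5% and 16.2%. This difference was not tested, since precision rises with the count and 6 of the 7 members are abundant.

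**Figure D3:**
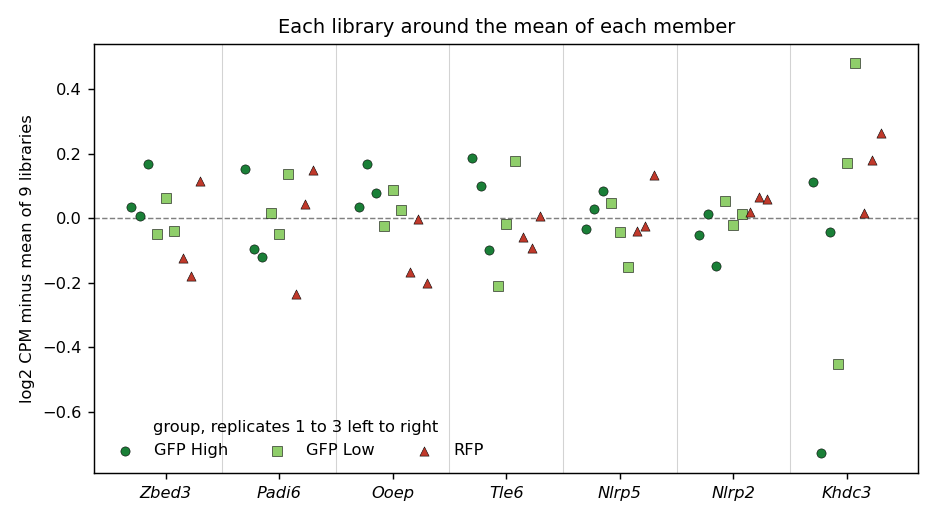
log2 CPM of each library minus the mean of 9 libraries, for each member, with libraries in the order GFP High 1 to 3, GFP Low 1 to 3 and RFP 1 to 3 from left to right. GFP High lies above RFP without overlap for Ooep and below it for Nlrp2, and the libraries that are high or low differ from member to member.

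No pair of members had a correlation across libraries that passed the test. Over the 21 pairs, the Pearson correlation of log2 CPM across 9 libraries ran from -0.64 for Nlrp2 and Zbed3 to 0.52 for Nlrp5 and Zbed3, with a median of -0.01 and 10 positive values. Of these, 0 had an unadjusted p below 0.05 in the two-sided exact permutation test over 362880 pairings. For Nlrp2 and Zbed3 the exact permutation p was 0.0581, or 0.782 after Benjamini-Hochberg adjustment over the 21 pairs. Spearman's rho of that pair was -0.60, with an exact permutation p of 0.0968 (adjusted 0.678). Without GFP High 1 and GFP High 3, the libraries farthest from the median of Nlrp2, r was -0.30, and with the group means removed it was -0.46 over all 9 libraries. For Nlrp5 and Zbed3, r was 0.52 with an exact permutation p of 0.146 (adjusted 0.782), rho was 0.38 with an exact permutation p of 0.312 (adjusted 0.772), and r was 0.50 without GFP Low 3 and RFP 3. With the mean of each group removed, the median r over the 21 pairs was -0.00.

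The 5 genes whose log2 CPM profile over the 9 libraries was most like the mean of the members were Khdc1a, Gm8801, Srbd1, Kansl3 and Hras, with r of 0.96, 0.94, 0.92, 0.92 and 0.91, among 6056 genes with at least 20 CPM (median r 0.04). All points share library depth and scaling, and with so many genes compared over 9 libraries the values are a description. The mean itself had its highest r with Khdc3, its most variable member, at 0.81, then with Padi6 at 0.77 and Tle6 at 0.61, and the r of Khdc1a with Khdc3 was 0.83. Without Khdc3 in the mean, the r of Khdc1a was 0.55, and the 5 most alike were Mxd1, Tom1l2, Rab27a, Trim26 and Yipf5, none of them shared with the former 5. Rab27a, which is among them with an r of 0.91, is the nearest protein-coding gene below Khdc3 in coordinates.

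Within their gene families, the members stood in different places. Padi6, at 787 FPKM, was the highest peptidylarginine deiminase of the egg, and Padi2, the next, had 0.601 ± 0.362 FPKM. Tle6, at 292 FPKM, compares with 16.2 ± 0.771 for Tle4, the highest of the other Groucho genes, and Zbed3, at 3977, with 15.8 ± 2.36 for Zbed4. Among the KH-domain genes the order was different. Khdc1b, of a cluster of oocyte genes on chromosome 1, had 393 ± 45.8 FPKM, above the 313 of Ooep in the mean, though their ranges overlapped, and all 4 listed relatives, with Dppa5a the lowest at 49.8 ± 11.7, lay above Khdc3. In edgeR 0 of 14, 0 of 14 and 0 of 13 relatives tested passed the adjusted threshold in GFP High against RFP, GFP Low against RFP and GFP High against GFP Low, as with DESeq2 and limma-voom. At an unadjusted p below 0.05 edgeR and DESeq2 each had 0, 1 and 0 of them, and limma-voom 0, 2 and 0. Over all genes, that share in GFP Low against RFP was 2.62% in edgeR, 2.02% in DESeq2 and 3.11% in limma-voom. In edgeR the gene was Tle2, with 0 to 41 counts per library (log2 fold change -2.20, unadjusted p 0.00986, adjusted p 0.9999).

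**Figure D4:**
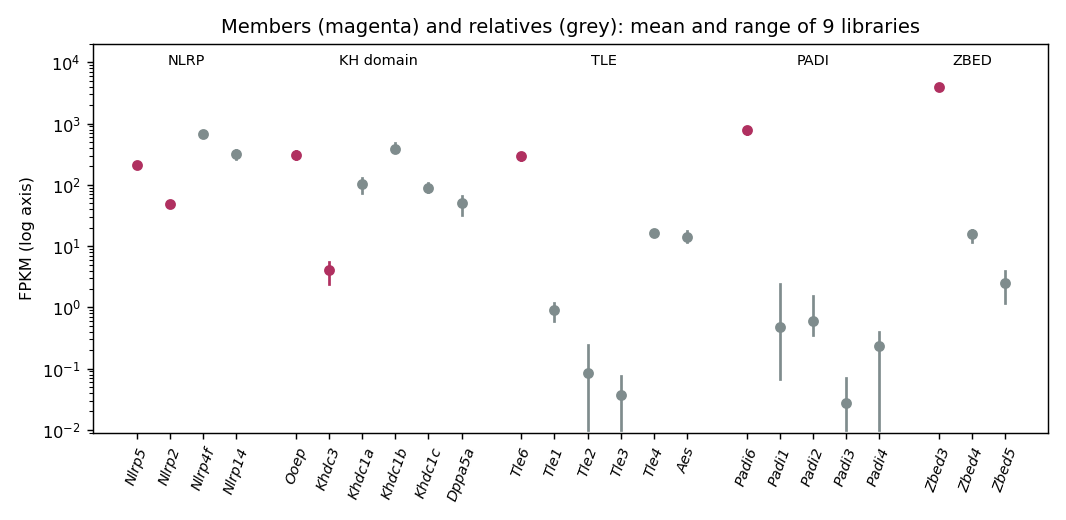
Mean FPKM (points, log axis) and range over 9 libraries (lines) of the members, in magenta, and of other genes of their families, in grey; a line that reaches the bottom of the axis includes libraries listed at 0. Tle6, Padi6 and Zbed3 stand above all their listed relatives, whereas Khdc3, as counted, stands below all other KH-domain genes shown.

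The nearest protein-coding genes that do not overlap a member differed from it in level. Tle2 lies 59 bases from Tle6 and had 0.0858 FPKM, and Padi4 lies 3222 bases from Padi6 and had 0.233. Dppa5a, a relative of Ooep 7932 bases away from it, had 49.8 FPKM. Nlrp4e, on the lower side of Nlrp5, had 32.1, and Vmn1r167 on the other side had 0.00927. Vmn1r57 and Vmn1r58, vomeronasal receptor genes on either side of Nlrp2 and of Gm5065, which overlaps it, had 0.00936 and 0.00262. Of the 7 members, only Khdc3 was lower, as counted, than both such neighbours, Rab27a at 44.0 and Rsl24d1 at 20.7 FPKM. Gm20509, which overlaps Khdc3 and reaches into the span of Rsl24d1, had at most 11 counts. How reads in shared bases were counted is not given, and the counts of Khdc3 and Gm20509 may both depend on it. This was not tested. Of the rest, Ddx43 beside Ooep had 0.00436, BC025920 beside Tle6 0.204, Rcc2 beside Padi6 12.7, and Pde8b and Aggf1 beside Zbed3 1.65 and 7.49.

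No gene of the 5 listed whose proteins are found with the complex, its lattices or its actin-related functions passed the test between groups. Nlrp4f, an NLRP gene of the complex, had 2536 ± 110 CPM for GFP High, 2735 ± 93.3 for GFP Low and 2780 ± 123 for RFP (SD, n = 3), a log2 fold change of -0.13 (-0.27 to 0.02) in GFP High against RFP. Nlrp14, which stabilises UHRF1, had 1061 ± 109, 1161 ± 116 and 1208 ± 98.8 CPM, a change of -0.18 (-0.40 to 0.03). Uhrf1, a regulator of DNA methylation kept in the egg's cytoplasm, had 925 ± 28.3, 999 ± 12.3 and 984 ± 98.0 CPM, a change of -0.08 (-0.27 to 0.11). Cfl1, which codes for the actin-severing protein cofilin, had 483 ± 78.6, 412 ± 38.6 and 411 ± 59.2 CPM, a change of 0.24 (-0.07 to 0.54). Ube2d3, a ubiquitin-conjugating enzyme, had 1056 ± 63.3, 978 ± 33.8 and 1066 ± 149 CPM, a change of -0.01 (-0.25 to 0.23). In each of the 3 comparisons 0 of these 5 genes passed the adjusted threshold in edgeR, DESeq2 or limma-voom. At an unadjusted p below 0.05, edgeR and DESeq2 had 0 of 5 in each. In GFP High against RFP, GFP Low against RFP and GFP High against GFP Low, limma-voom had 1, 0 and 1 of 5. Over all genes, the shares at that p were 4.09%, 2.62% and 3.77% in edgeR. They were 4.92%, 2.02% and 4.71% in DESeq2 and 5.23%, 3.11% and 4.94% in limma-voom. Per length, Nlrp4f at 686 ± 33.8 FPKM and Nlrp14 at 320 ± 31.3 lay above both NLRP members, Nlrp5 and Nlrp2.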

How the data were processed

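Poly-A RNA of pooled eggs was captured with poly-dT beads, fragmented, reverse transcribed from random primers and read from both ends, per the labels' protocols. The submitters' processing notes name fastp, HISAT2 2.0.5, featureCounts 1.5.0-p3, DESeq2 1.20.0 and the build mm10; the counting options and annotation are not given in the sources used here. The authors deposited 3 tables, 1 per pair of groups, of raw read counts per gene, FPKM values, a signal normalised by size factors, and their log2 fold changes with p-values. The tables held 26775 (GFP High against RFP), 29099 (GFP Low against RFP) and 26570 genes (GFP High against GFP Low), and were joined by gene identifier into 30153 genes in 9 libraries. For 178 genes missing from a table, the count was set to 0. Groups were taken from the labels.

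For each pair of groups, the 6 libraries of the table were fitted with edgeR 4.0.16 in R 4.3.3, with filterByExpr, TMM scaling, the quasi-likelihood test without covariates and Benjamini-Hochberg adjustment over all genes tested, with a threshold of 0.05. 95% intervals use the standard error from the quasi-likelihood F statistic. CPM are TMM-scaled over 9 libraries, and "higher" or "lower without overlap" refers to these. The tests were checked on simulated data. DESeq2 1.42.0, limma 3.58.1, other scalings and filters, a replicate block and leaving out each library were alternatives. Coordinates are those deposited, which match GRCm38, and exon overlaps use GENCODE for that build. Similar transcripts were searched with blastn 2.17.0 (at least 95% identity over 100 bases). Reads carry no molecular identifiers, so counting errors cover counting only, and the limit of detection was set at 3 counts. FPKM and signal entered no test. Protein sequences were not used here.

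The members and gene lists were chosen with earlier results of these data known. The genes named are all members, both reporters, the 5 partner genes, the best expressed relative of each family, the gene with the smallest unadjusted p among other maternal effect genes and oocyte regulators in each comparison, overlapping and nearest protein-coding genes, and the 5 genes most like the members' mean. Other names, such as Nr5a2, Nlrp5-ps or Ube2e1, were added after their values were seen. Tle5 appears in the tables under its older symbol Aes, and Zbed6 and the overlapping Gm25196, which matched no row, were not analysed here. The level of Khdc3 over unshared exons and the likeness without Khdc3 were chosen after seeing the data.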

Additional observations from a re-analysis of the deposited data

How the results depend on the processing

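The number of members past the adjusted threshold was 0 of 7 in all 59 fits run, 4 as described and 55 alternatives. Among the fits of a pair of groups, the lowest adjusted p of a member was 0.438 in edgeR, for Tle6 in GFP High against RFP without GFP High 3. Of the 21 fold changes, 14 kept their direction throughout; the others lay close to 0. In GFP High against RFP, the log2 fold change of Nlrp5 was -0.00878 without TMM, -0.0120 without the filter and -0.000135 with all 9 libraries in the fit, and that of Padi6 was 0.00496 with DESeq2, 0.00361 with limma-voom and 0.00456 with DESeq2's size factors. In GFP Low against RFP, that of Khdc3 was 0.000952 with bias-adjusted deviances. Leaving out each library in turn gave -0.0329 to 0.0553 for Nlrp5 and -0.115 to 0.0695 for Padi6 in GFP High against RFP, -0.264 to 0.176 for Khdc3, -0.0643 to 0.129 for Tle6, -0.0617 to 0.124 for Padi6 and -0.00424 to 0.142 for Zbed3 in GFP Low against RFP, and -0.0170 to 0.174 for Tle6 in GFP High against GFP Low; the cause was not tested. Per kilobase of unshared exons, the level of Khdc3 was 6.62 FPKM, by construction. Over all genes, calls in GFP High against RFP, GFP Low against RFP and GFP High against GFP Low were 2, 3 and 0 in edgeR, 12, 10 and 4 in DESeq2, 1, 1 and 0 in limma-voom, and 16, 34 and 16 without the filter. The test of any difference among the groups called 2 genes, or 70 without the filter.

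The replicate numbers were not used as a pairing in the main fits. Same-numbered libraries deviated from their group means with correlations of -0.106 to 0.120, and differently numbered ones with -0.199 to 0.166. With 3 libraries per group this cannot exclude a pairing. With the replicate block 0 of 7 members passed in each comparison, and calls over all genes were 4, 3 and 0. Khdc3, with 116 to 318 counts per library, had the widest intervals, and its spread in the GFP groups exceeded counting error.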

Other observations

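Of 19 other maternal effect genes listed, 0 passed the adjusted threshold of edgeR in each of the 3 comparisons. At an unadjusted p below 0.05, edgeR had 2, 0 and 2 of 19, beside 4.09%, 2.62% and 3.77% of all genes tested. The order is GFP High against RFP, GFP Low against RFP and GFP High against GFP Low. DESeq2 and limma-voom also called 0 of 19, with 2, 0 and 3 at an unadjusted p below 0.05 in each tool. The shares of all genes at that p were 4.92%, 2.02% and 4.71% in DESeq2 and 5.23%, 3.11% and 4.94% in limma-voom. Npm2, which codes for the egg's histone chaperone nucleoplasmin, had the smallest p in GFP High against RFP, with 2070 ± 271 against 1778 ± 73.7 CPM (SD, n = 3; log2 fold change 0.22, unadjusted p 0.0366 and adjusted p 0.997 in edgeR). Ctcf, which codes for a chromatin insulator protein, had the smallest in GFP Low against RFP, with 193 ± 7.93 against 213 ± 15.4 CPM (log2 fold change -0.14, unadjusted p 0.115 in edgeR). Dppa3, whose protein guards the maternal genome's methylation, had the smallest in GFP High against GFP Low, with 1997 ± 114 against 1765 ± 99.5 CPM (log2 fold change 0.18, unadjusted p 0.0201 and adjusted p 0.998 in edgeR).

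Of 6 transcription regulators of oocyte genes, 5 were tested, and 0 passed the threshold or had an unadjusted p below 0.05 in any of the 3 comparisons in edgeR. DESeq2 and limma-voom called 0 as well, with 0, 0 and 0 at an unadjusted p below 0.05 in DESeq2 and 1, 0 and 1 in limma-voom. Over all genes, the shares at that p were 4.09%, 2.62% and 3.77% in edgeR. They were 4.92%, 2.02% and 4.71% in DESeq2 and 5.23%, 3.11% and 4.94% in limma-voom. Lhx8, a LIM-homeobox factor, had the smallest p in both comparisons with RFP, with log2 fold changes of 0.15 for GFP High and 0.13 for GFP Low. Figla had the smallest in GFP High against GFP Low, with a log2 fold change of 0.33 (95% interval -0.15 to 0.80).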
